A study of Mus musculus with 38 samples.

Results

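CYP3A enzymes are cytochrome P450 monooxygenases of the endoplasmic reticulum that oxidise a wide range of drugs, bile acids and steroids, and in liver they are known as the classical product of the pregnane X receptor PXR (Nr1i2). PXR and its relative CAR (Nr1i3), the receptor through which phenobarbital acts, pair with RXR on repeats of a short half-site and raise transcription of CYP3A, CYP2B and CYP2C genes and of conjugating enzymes and transporters. In the mouse, Cyp3a11 is the main inducible liver form, Cyp3a41 and Cyp3a44 are known as female-predominant liver forms, and Cyp3a16 as a form of fetal and newborn liver. The members were the 7 mouse genes Cyp3a11, Cyp3a13, Cyp3a16, Cyp3a25, Cyp3a41a, Cyp3a44 and Cyp3a59, taken by gene symbol from the array annotation and not by any measured value, out of 18193 genes with a probe set of 1 symbol. Of these, 5 had 1 probe set of their own. Cyp3a41a was measured only on a probe set that the annotation also gives to Cyp3a41b, called here the Cyp3a41a/b probe set and not assigned to either gene. Cyp3a59 had no probe set in the annotation used here and has no value.

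Male mice of the outbred CD-1 stock, aged 6 to 8 weeks, gave the livers profiled on 38 Affymetrix mouse arrays, which carry 45101 probe sets. In a conazole experiment, groups of 3 mice ate feed with propiconazole at 2500 ppm (349.6 ± 46.7 mg/kg/day), feed with triadimefon, spelled tridimefon in the labels, at 1800 ppm (257.1 ± 33.5 mg/kg/day), or control feed, for 4 or 30 days. Both are triazole fungicides. In a phenobarbital experiment, groups of 5 mice ate feed with phenobarbital at 850 ppm (97.2 ± 5.9 mg/kg/day) or control feed for the same times. Each experiment had its own controls, so that a difference between experiments and one between array batches cannot be told apart. The 3 doses were not matched. Levels are given as log2(intensity + 16) after quantile normalization (lowest possible value 4), background was a level of 6.13 set by olfactory receptor genes, and a change is the difference of 2 group means on that log2 scale ± its standard error from limma. Genes with an adjusted p under 0.05 (limma, Benjamini-Hochberg over the 17728 genes tested) are spoken of as called.

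The deposited intensities had medians of 12.5 to 36.1 between arrays, and no 2 arrays held identical values. One array, propiconazole day 4 replicate 2, had a Gapdh 3′ signal 6.39 log2 units above its 5′ signal, where the remaining 37 arrays had -0.37 to 0.22, and day 4 results are given with and without it. The Actb excess was 0.62 to 1.84 under propiconazole, 0.76 to 0.94 under triadimefon and 0.8 to 1.3 in controls on day 4, against 0.35 to 0.47, 0.42 to 0.47 and 0.37 in the same diets on day 30. All 7 measured hepatocyte markers were above background in every group, and markers of other cells were in part above background too. Of the 3 lymphocyte markers Ptprc was so on 37 of 38 arrays, Cd79a on 9 and Cd3e on 0, and of the 4 enterocyte markers Fabp2 on 38, Cdx2 on 7, Lct on 2 and Vil1 on 0. In whole liver, fewer cells of a type and less RNA per cell cannot be told apart.

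All members lie on chromosome 5 (GRCm38.p6, names and positions from RefSeq, as the array files give none). Cyp3a16 (145436309 to 145469740), Cyp3a41b (145558664 to 145584732), Cyp3a41a (145694049 to 145720136), Cyp3a44 (145773983 to 145805891), Cyp3a11 (145854607 to 145879854), Cyp3a25 (145977192 to 146009644) and Cyp3a59 (146079208 to 146114978) follow each other, and Cyp3a13 (137892933 to 137925610) lies apart from them. The RefSeq windows from 250 bases before to 50 bases after the gene start are shown for 5 members, picked by their probe sets. Those of Cyp3a44, Cyp3a41a and Cyp3a16 were called higher under a conazole, that of Cyp3a16 with every array below background. Those of Cyp3a11 and Cyp3a25 read near the top of the scale. All 7 members matched that table. Its gene starts match the gene bounds given above for Cyp3a11 and Cyp3a41a and differ from them for the other members. Half-site positions are counted from its starts. Each is written 5′ to 3′ on the gene's own strand, which is the minus strand for all 5. Capitals mark the nuclear receptor half-sites AGGTCA or AGTTCA on either strand (TGACCT or TGAACT where the match is on the other strand).
Cyp3a44: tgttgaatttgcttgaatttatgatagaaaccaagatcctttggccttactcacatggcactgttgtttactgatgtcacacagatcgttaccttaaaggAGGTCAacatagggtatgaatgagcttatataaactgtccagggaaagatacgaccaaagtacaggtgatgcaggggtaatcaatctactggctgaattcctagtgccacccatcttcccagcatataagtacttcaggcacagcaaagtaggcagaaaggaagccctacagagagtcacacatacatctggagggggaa
Cyp3a41a: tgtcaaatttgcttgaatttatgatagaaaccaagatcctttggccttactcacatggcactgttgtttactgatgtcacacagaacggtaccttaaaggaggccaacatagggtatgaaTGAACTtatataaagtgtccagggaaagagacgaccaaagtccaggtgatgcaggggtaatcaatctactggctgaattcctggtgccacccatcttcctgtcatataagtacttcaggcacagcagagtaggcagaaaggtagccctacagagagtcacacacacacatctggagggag
Cyp3a16: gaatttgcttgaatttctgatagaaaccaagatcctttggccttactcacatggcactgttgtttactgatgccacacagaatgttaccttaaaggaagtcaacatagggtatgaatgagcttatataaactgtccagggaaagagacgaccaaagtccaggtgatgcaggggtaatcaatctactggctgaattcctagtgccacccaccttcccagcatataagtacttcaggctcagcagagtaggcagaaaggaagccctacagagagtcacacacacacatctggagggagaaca
Cyp3a11: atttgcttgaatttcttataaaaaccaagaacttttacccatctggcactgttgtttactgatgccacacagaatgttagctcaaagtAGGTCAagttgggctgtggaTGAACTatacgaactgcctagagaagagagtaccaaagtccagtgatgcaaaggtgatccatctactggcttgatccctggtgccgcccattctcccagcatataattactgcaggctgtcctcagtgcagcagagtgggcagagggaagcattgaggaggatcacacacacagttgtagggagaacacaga
Cyp3a25: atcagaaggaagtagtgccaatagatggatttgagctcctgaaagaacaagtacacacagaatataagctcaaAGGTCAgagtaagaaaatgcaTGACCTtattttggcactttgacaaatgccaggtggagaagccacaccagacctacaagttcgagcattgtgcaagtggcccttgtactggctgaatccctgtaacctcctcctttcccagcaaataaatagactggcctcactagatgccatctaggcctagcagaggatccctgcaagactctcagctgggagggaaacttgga
The windows are chr5:145805825-145806124 for Cyp3a44, chr5:145720087-145720386 for Cyp3a41a, chr5:145469674-145469973 for Cyp3a16, chr5:145879805-145880104 for Cyp3a11 and chr5:146009568-146009867 for Cyp3a25, the last being 1 of 2 windows that the table holds for that gene.

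The windows of Cyp3a44, Cyp3a41a and Cyp3a16 were 92.1 to 93.4% identical in pairwise alignment, and that of Cyp3a11 was 70.4 to 74.8% identical to these 3. The window of Cyp3a25 was 49.6 to 53.6% identical to those of the other measured members, but 96.3% to that of Cyp3a59. Cyp3a41a and Cyp3a41b shared 97.0%. One AGGTCA lay at -150 from the start of Cyp3a44, 1 AGTTCA at -130 of Cyp3a41a, 1 of each at -162 and -142 of Cyp3a11, and 2 AGGTCA at -177 and -156 of Cyp3a25. The windows of Cyp3a16 and Cyp3a13 held neither. That of Cyp3a13 (chr5:137921570-137921869, minus strand) lies inside the gene span given above, and so does not cover the bases before its end at 137925610. Either half-site was found in 27.6% of 27025 RefSeq windows of the same length (AGGTCA in 16%, AGTTCA in 14%). The paired forms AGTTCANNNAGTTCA and TGAACTNNNNNNAGTTCA were in none of the members' windows and in 0 and 2 of all windows.

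Cyp3a44 and the Cyp3a41a/b probe set rose about 2-fold on day 30 under both conazoles, and neither was called under phenobarbital. Cyp3a44 rose as well on day 4 under propiconazole. Cyp3a16 was called higher under propiconazole on day 30 with every array below background. Cyp3a11 and Cyp3a25, whose probe sets read near the top of the scale, were called in no comparison. With quantile normalization their 95% intervals against control feed lay within -0.19 and 0.33. Over the alternative settings the Cyp3a11 change ran from -0.38 to -0.06 under triadimefon on day 4. Under propiconazole on day 4 it ran from -0.17 to 0.12. That of Cyp3a25 ran from -0.21 to 0.10 under triadimefon on day 4, and none of these was called.

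**Figure D1:**
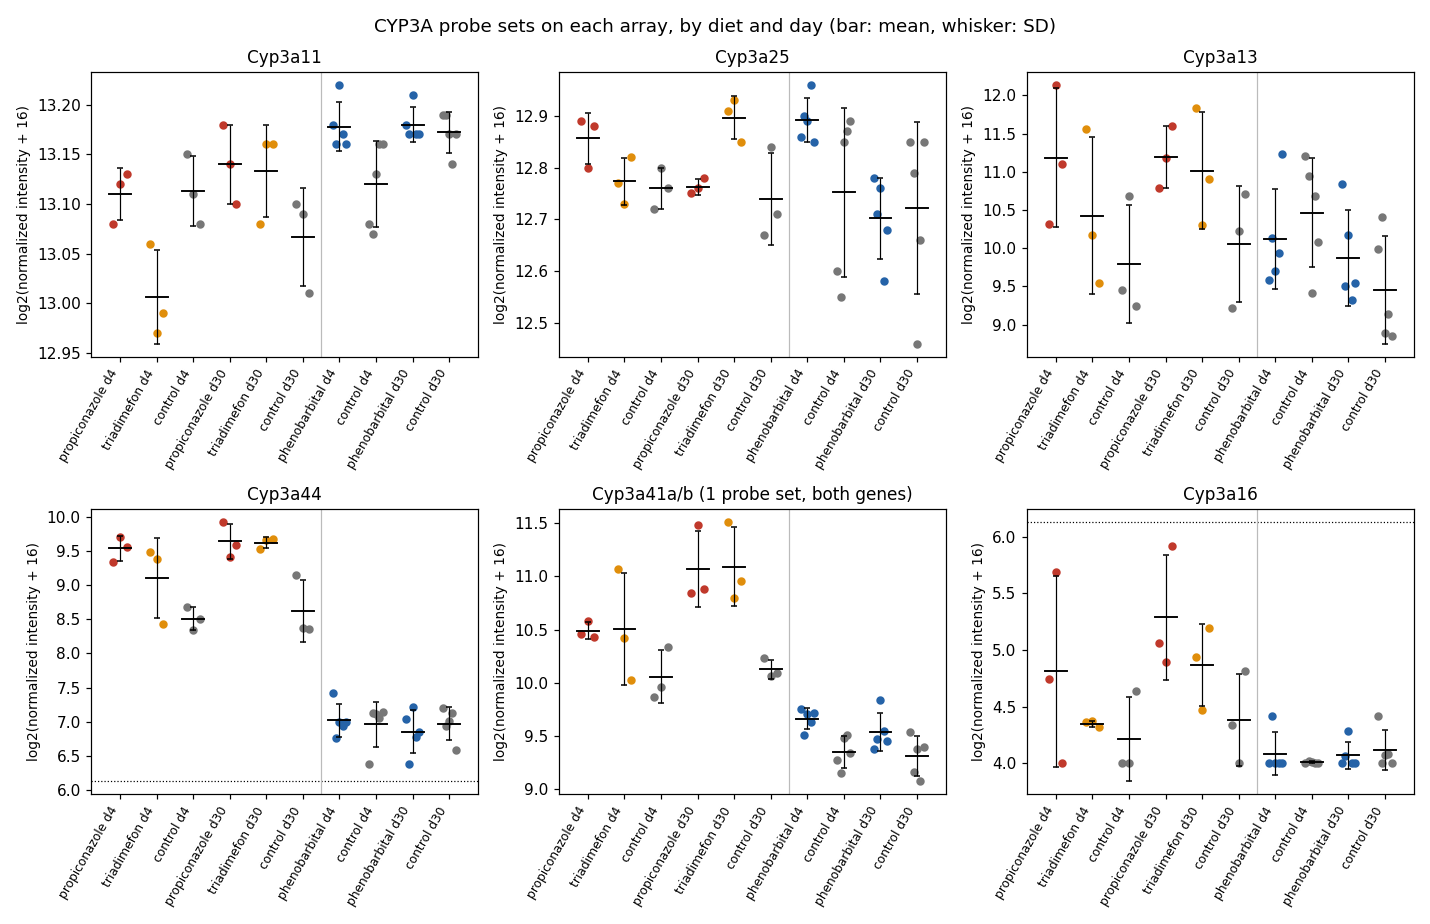
Level of each CYP3A probe set on each array, log2(normalized intensity + 16) on the y axis, with diet and day on the x axis; points are arrays, bars are group means, whiskers are SDs, the grey line parts the conazole from the phenobarbital experiment, and the dotted line is background. Cyp3a44 and Cyp3a41a/b were higher on conazole diets than on their control feed, save for triadimefon day 4 replicate 3, Cyp3a13 scatters widely within every group, and Cyp3a16 stays below background throughout.

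Cyp3a44 stood at 9.35, 9.71 and 9.57 in propiconazole livers on day 4, against 8.68, 8.35 and 8.51 in controls. All 3 treated arrays were above all 3 controls. The means were 9.54 ± 0.18 and 8.51 ± 0.16 (SD, n = 3 each), a change of 1.03 ± 0.25 (2.04-fold, adjusted p = 0.0057). Cyp3a44 was the only one of the 5 members with a probe set of their own to be called higher on that day, where 7.36% of all genes were called higher. Without replicate 2, the array with the Gapdh excess, the change was 0.95 (adjusted p = 0.028). The call was lost with the values as deposited (0.71, adjusted p = 0.051), where the median of all genes itself moved by -0.16, with array weights (adjusted p = 0.28) and when only these 2 groups entered the fit (adjusted p = 0.22).

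On day 30 Cyp3a44 read 9.93, 9.42 and 9.60 under propiconazole and 9.15, 8.37 and 8.36 on control feed. One control array, replicate 1, stood above the other controls but below every treated array. The change was 1.02 ± 0.25 (2.03-fold, adjusted p = 0.0059). It was called together with Cyp3a16, itself below background, as 2 of 5 members, where 5.29% of genes were called higher. It remained called without each array of the comparison in turn (0.88 to 1.29), and was lost only where just these 2 groups were fitted (adjusted p = 0.074). The change on day 30 minus that on day 4 was -0.01 ± 0.35 (95% interval -0.71 to 0.70).

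Under triadimefon on day 4 Cyp3a44 read 9.49, 9.39 and 8.43, against the same controls at 8.68, 8.35 and 8.51. Replicate 3 lay inside the control range while the other treated arrays were above it, and the change of 0.59 ± 0.25 did not pass (adjusted p = 0.18). Without replicate 3 it was 0.93 (adjusted p = 0.022), and with the values as deposited, where the median of all genes moved by 0.17, it was 0.86 (adjusted p = 0.026). None of the 5 members was called higher in this comparison, where 2.10% of genes were. On day 30 the triadimefon arrays read 9.53, 9.67 and 9.68, against 9.15, 8.37 and 8.36. All treated arrays were above all controls, and the change was 1.0 ± 0.25 (2.0-fold, adjusted p = 0.014), the 1 member of 5 called where 2.41% of genes were called higher. Without control replicate 2 or replicate 3 the change was 0.87 and 0.86 and was not called (adjusted p = 0.071 each), and neither was it with median centring (0.89, adjusted p = 0.068), array weights (adjusted p = 0.059) or these 2 groups alone (adjusted p = 0.10).

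In the phenobarbital experiment Cyp3a44 was above background on every array. On day 4 it read 7.42, 6.76, 7.0, 6.94 and 6.99 under phenobarbital and 6.37, 7.12, 7.11, 7.05 and 7.14 on control feed. On day 30 it read 7.04, 6.38, 7.21, 6.78 and 6.84 under phenobarbital and 7.20, 6.93, 7.01, 7.12 and 6.58 on control feed. The groups overlapped on both days, and the changes were 0.07 ± 0.19 (95% interval -0.32 to 0.45) and -0.12 ± 0.19 (-0.51 to 0.27). None of the 5 members was called higher under phenobarbital on day 4 or day 30, where 0.530% and 0.395% of genes were.

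Across the 10 groups, mean levels of Cyp3a44 ran from 9.65 (propiconazole day 30), 9.62 (triadimefon day 30), 9.54 (propiconazole day 4) and 9.10 (triadimefon day 4) to 8.63 and 8.51 (conazole controls, day 30 and day 4), then 7.02 (phenobarbital day 4), 6.97 and 6.96 (phenobarbital controls, day 30 and day 4) and 6.85 (phenobarbital day 30). Neighbours in the order differed by less than the larger of their SDs (0.09 to 0.59 in the conazole experiment, 0.24 to 0.33 in the other), save where the conazole controls meet the phenobarbital experiment. The 6 conazole controls averaged 8.57 (8.35 to 9.15), 1.61 above the 10 phenobarbital controls at 6.96 (6.37 to 7.20), and 2.03% of genes differed more between these control sets. As deposited, the intensities were 207.7 to 420.4 and 78.9 to 172.8. The Cyp3a41a/b probe set differed by 0.76 between the control sets, which 15.6% of genes exceeded, and the other 4 by at most 0.24. As deposited, Cyp3a41a/b intensities overlapped, at 627.9 to 883.4 in conazole and 613.5 to 986.1 in phenobarbital controls. What set the control levels apart was not tested.

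The difference between the compounds' changes was tested directly. The propiconazole change of Cyp3a44 exceeded the phenobarbital change by 1.14 ± 0.31 on day 30 (adjusted p = 0.047), 1 of 5 members called where 1.92% of genes were called in either direction. The call did not hold without any 1 of 11 arrays (adjusted p up to 0.13 with a change of 1.0 to 1.41 over all 16 arrays left out in turn), nor with values as deposited, median centring, a pseudocount of 4, array weights or the replicate block. These arrays were conazole control day 30 replicates 2 and 3, propiconazole day 30 replicates 1 and 3, phenobarbital control day 30 replicates 1, 2, 3 and 4, and phenobarbital day 30 replicates 2, 4 and 5. On day 4 the difference was 0.96 ± 0.31 (adjusted p = 0.099, 0.045 without propiconazole replicate 1), and for triadimefon 0.53 ± 0.31 on day 4 and 1.12 ± 0.31 on day 30 (adjusted p = 0.58 and 0.093). The last was called without conazole control day 30 replicate 1 (1.38, adjusted p = 0.044) and with the compared groups alone (adjusted p = 0.045). No member was called in these 3 comparisons, where 1.83%, 0.0451% and 0.451% of genes were.

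The Cyp3a41a/b probe set read 10.46, 10.58 and 10.43 in propiconazole livers on day 4, against 9.87, 9.96 and 10.34 on control feed. All treated arrays were above all controls, as they were for Cyp3a44 and for 9.38% of genes, but the change of 0.44 ± 0.19 did not pass (adjusted p = 0.13; 0.39 and 0.28 without replicate 2). On day 30 it read 10.84, 11.48 and 10.88, against 10.23, 10.06 and 10.09. The groups stood apart by 0.94 ± 0.19 (1.92-fold, adjusted p = 0.0015), called in all 17 alternative settings (adjusted p at most 0.039).

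Triadimefon arrays read 11.07, 10.42 and 10.03 for this probe set on day 4, with replicate 3 inside the control range, and the change was 0.45 ± 0.19 (adjusted p = 0.20; 0.69 and 0.036 without replicate 3). On day 30 they read 11.51, 10.80 and 10.96 against the controls at 10.23, 10.06 and 10.09, again without overlap. The change was 0.96 ± 0.19 (1.95-fold, adjusted p = 0.0028), not called only where these 2 groups were fitted alone (adjusted p = 0.075). Its day 30 change exceeded its day 4 change by 0.50 ± 0.27 under propiconazole and 0.52 ± 0.27 under triadimefon (adjusted p = 0.36 and 0.40).

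Under phenobarbital the probe set read 9.75, 9.51, 9.71, 9.63 and 9.72 on day 4 and 9.38, 9.47, 9.84, 9.55 and 9.45 on day 30. Its controls read 9.28, 9.15, 9.48, 9.51 and 9.34 on day 4 and 9.54, 9.16, 9.38, 9.08 and 9.40 on day 30. On day 4 the lowest treated and the highest control array met at 9.51, and on day 30 the groups overlapped. The changes were 0.31 ± 0.15 (95% interval 0.01 to 0.62, adjusted p = 0.50) and 0.22 ± 0.15 (-0.08 to 0.53, adjusted p = 0.96). The conazole changes exceeded these on day 30 by 0.72 ± 0.24 and 0.74 ± 0.24 for propiconazole and triadimefon, without passing (adjusted p = 0.12 and 0.16).

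**Figure D2:**
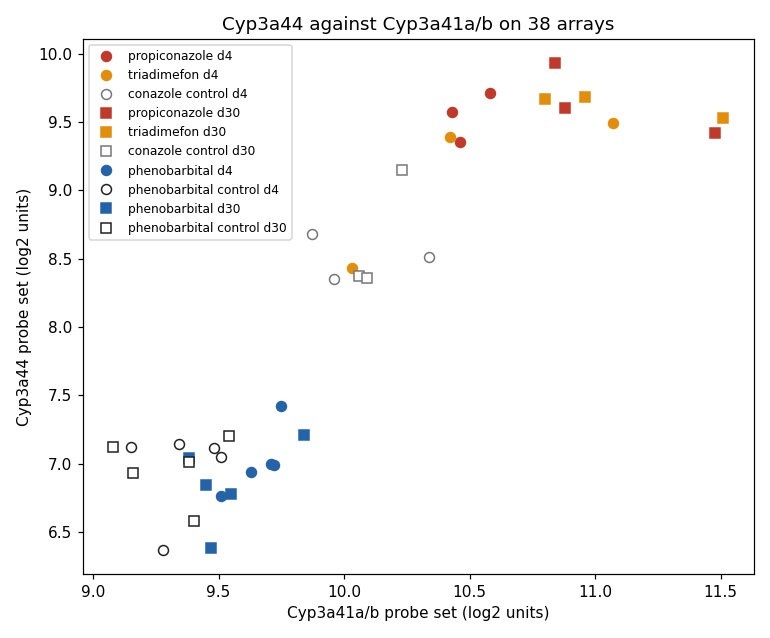
Level of the Cyp3a44 probe set (y axis) against the Cyp3a41a/b probe set (x axis) on the 38 arrays, both in log2 units; colour gives the compound, circles day 4, squares day 30, and open symbols are controls. Conazole arrays lie at the upper right, with triadimefon day 4 replicate 3 at 10.03 and 8.43 among the conazole controls, and phenobarbital arrays lie with their controls at the lower left.

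Levels of the Cyp3a44 and Cyp3a41a/b probe sets were correlated over arrays. With the mean of the same-day controls of the same experiment subtracted, their Pearson r was 0.71 over 38 arrays. For levels it was 0.74 over the 18 conazole arrays and 0.23 over the 20 phenobarbital arrays. The arrays share groups, batch and normalization, and how far probe sets of such similar genes take up each other's transcripts was not tested. Cyp3a16 had r of 0.59 with Cyp3a44 and 0.56 with Cyp3a41a/b, while Cyp3a11 had 0.24 and 0.33 and Cyp3a25 0.22 and 0.32.

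Cyp3a16 was below background on all 38 arrays and at the lowest possible value on 16. On day 30 it read 5.06, 4.89 and 5.92 under propiconazole, against 4.34, 4.00 and 4.81 on control feed. The arrays did not overlap and the change of 0.91 ± 0.27 was called (adjusted p = 0.026), but both groups were below background and no fold is given. It was not called without control replicate 1 (0.89, adjusted p = 0.068), control replicate 2 (0.72, adjusted p = 0.14) or propiconazole replicate 3 (0.59, adjusted p = 0.20), nor with these 2 groups alone (adjusted p = 0.20).

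On day 4 Cyp3a16 read 4.74, 5.69 and 4.00 under propiconazole and 4.00, 4.00 and 4.64 on control feed, and the array with the Gapdh excess was the highest. The change of 0.60 ± 0.27 (adjusted p = 0.14) was 0.16 without that array and 1.01 (adjusted p = 0.0051) without replicate 3. Triadimefon changes were 0.14 ± 0.27 and 0.49 ± 0.27 on day 4 and day 30, and phenobarbital changes 0.08 ± 0.21 and -0.05 ± 0.21, none of them called. In the phenobarbital experiment the highest of 20 arrays read 4.42.

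Cyp3a11, the main inducible CYP3A of mouse liver, stood between ranks 47 and 97 from the brightest of 45101 probe sets. Under propiconazole it read 13.08, 13.12 and 13.13 on day 4, against 13.15, 13.11 and 13.08 in controls, and 13.18, 13.14 and 13.10 on day 30, against 13.10, 13.09 and 13.01. The changes were 0.00 ± 0.04 (95% interval -0.09 to 0.09) and 0.07 ± 0.04 (-0.02 to 0.16, adjusted p = 0.33). The groups overlapped on both days.

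Under triadimefon Cyp3a11 read 13.06, 12.97 and 12.99 on day 4, below all controls, and 13.08, 13.16 and 13.16 on day 30. The day 4 change was -0.11 ± 0.04 (unadjusted p = 0.018, adjusted p = 0.16) and the day 30 change 0.07 ± 0.04 (adjusted p = 0.44). The difference between the days, 0.17 ± 0.06, did not pass (adjusted p = 0.15). Phenobarbital livers read 13.18, 13.16, 13.22, 13.17 and 13.16 on day 4, against 13.08, 13.07, 13.13, 13.16 and 13.16, a change of 0.06 ± 0.03 (95% interval -0.01 to 0.13). On day 30 they read 13.18, 13.17, 13.21, 13.17 and 13.17, against 13.19, 13.19, 13.17, 13.14 and 13.17, a change of 0.01 ± 0.03 (-0.06 to 0.08). In each comparison save triadimefon on day 4 the arrays overlapped, and over all 38 arrays Cyp3a11 ranged from 12.97 to 13.22.

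The residual SD of Cyp3a11 within groups was 0.034 log2 units, and the highest level of any probe set was 13.71. Among 51 other genes within 0.2 of its mean level, residual SDs ran from 0.019 to 0.757 with a median of 0.07, and 6 were below that of Cyp3a11. Of those genes 4 were called under propiconazole on day 30, the largest rise being 0.34. As deposited, Cyp3a11 ranged from 5130.7 to 6634.9 in intensity on conazole arrays and from 10604.9 to 12919.4 on phenobarbital arrays. The highest deposited intensity of each array differed as well, at 8822 to 11269 and 14883 to 17989. How the probe set responds to transcript amount at such levels was not tested.

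**Figure D3:**
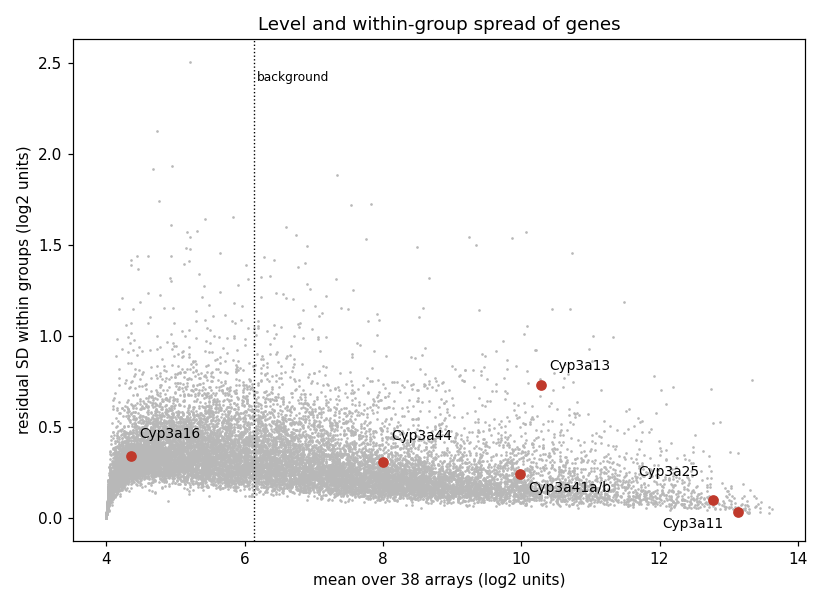
Mean level over 38 arrays (x axis, log2 units) and residual SD within groups (y axis, log2 units); grey points are the genes tested, red points the CYP3A probe sets, and the dotted line is background at 6.13. Cyp3a11 and Cyp3a25 lie at the bright, low-spread end (SD 0.034 and 0.10), and Cyp3a13 above most genes of its level (SD 0.732).

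Cyp3a25, a constitutively expressed liver and intestinal form, ranged from 12.46 to 12.96, between ranks 99 and 263. Its residual SD was 0.1, and of 62 other genes within 0.2 of its mean level 26 had a lower SD and 10 were called under propiconazole on day 30, with rises of up to 0.88. In triadimefon livers on day 30 it read 12.91, 12.93 and 12.85, against 12.67, 12.84 and 12.71 on control feed. These arrays did not overlap, together with those of Cyp3a44, the Cyp3a41a/b probe set and 9.27% of genes, but the change of 0.16 ± 0.08 did not pass (adjusted p = 0.31). Its other changes were 0.09 and 0.02 under propiconazole on day 4 and day 30, 0.01 under triadimefon on day 4, and 0.14 and -0.02 under phenobarbital, with adjusted p of 0.47 or more.

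Cyp3a13, a form of liver and intestine, varied most between mice of 1 group. Its residual SD of 0.732 was higher than that of 97.8% of genes above background. Propiconazole livers read 10.32, 12.14 and 11.10 on day 4, against 9.46, 10.68 and 9.25, and 10.79, 11.18 and 11.60 on day 30, against 9.22, 10.22 and 10.71. On day 30 all treated arrays were above all controls, as for 4 of the 6 CYP3A probe sets and 11.9% of genes. The changes of 1.39 ± 0.57 and 1.14 ± 0.57 did not pass (adjusted p = 0.10 and 0.22). The day 4 change was 1.83 (adjusted p = 0.038) without propiconazole replicate 1 and 0.92 (adjusted p = 0.40) without replicate 2, the array with the Gapdh excess, on which Cyp3a13 was highest.

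Triadimefon livers read 11.56, 10.17 and 9.55 for Cyp3a13 on day 4 and 11.83, 10.31 and 10.91 on day 30. The changes were 0.63 ± 0.57 and 0.96 ± 0.57 (adjusted p = 0.62 and 0.38), with overlap on both days. Under phenobarbital it read 9.59, 10.14, 9.70, 9.94 and 11.24 on day 4, against 11.21, 10.94, 9.42, 10.69 and 10.08, and 10.84, 9.51, 10.18, 9.32 and 9.54 on day 30, against 9.99, 10.41, 8.89, 9.14 and 8.85. The groups overlapped on both days, with changes of -0.35 ± 0.44 and 0.42 ± 0.44 whose 95% intervals ran from -1.25 to 0.55 and from -0.48 to 1.32.

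**Figure D4:**
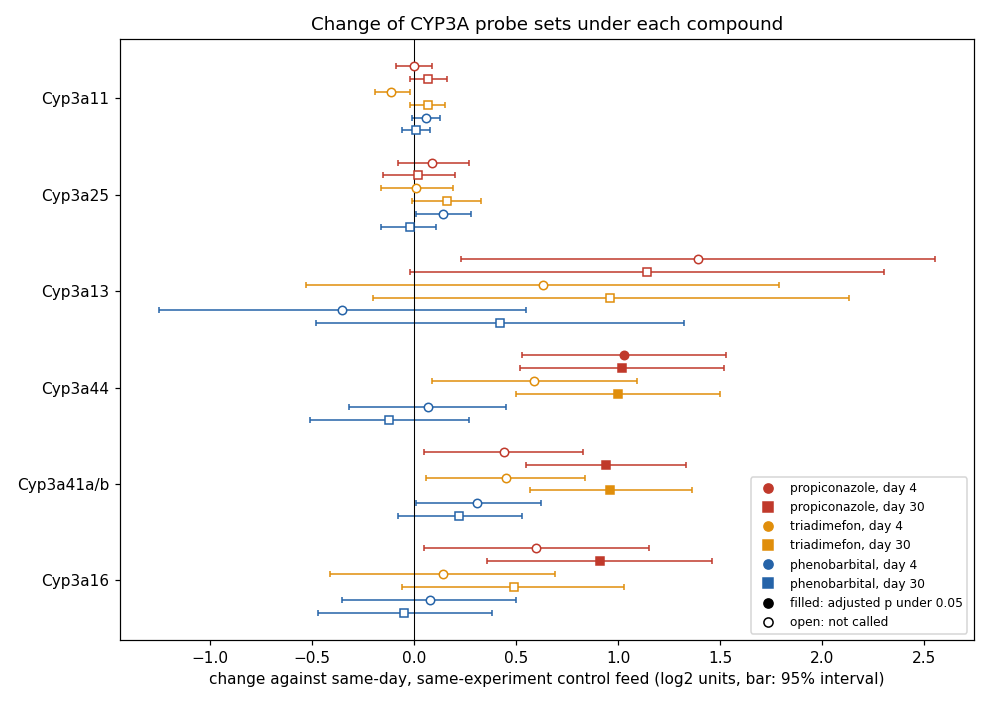
Change of each CYP3A probe set under each compound against control feed of the same day and experiment (x axis, log2 units; bars, 95% intervals); filled symbols were called at an adjusted p under 0.05. The filled symbols are Cyp3a44 in 3 comparisons, the Cyp3a41a/b probe set on day 30 under both conazoles, and Cyp3a16 under propiconazole on day 30.

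No CYP3A array values stood wholly above controls under triadimefon on day 4 or under phenobarbital on either day, where 10.5%, 2.88% and 2.24% of genes did. Between the propiconazole and triadimefon diets, whose doses differed, none of the members was called on day 4 or day 30, where 1.84% and 3.90% of genes were. Cyp3a16 was called on day 4 without propiconazole replicate 3 (0.87, adjusted p = 0.024), and the Cyp3a41a/b probe set with the values as deposited (-0.56, adjusted p = 0.047). The 95% interval of that difference on day 30 was -0.48 to 0.53 for Cyp3a44, -0.42 to 0.37 for the Cyp3a41a/b probe set and -0.08 to 0.09 for Cyp3a11. No change on day 30 was called different from that on day 4, where 1.95%, 1.31% and 0.00564% of genes were for propiconazole, triadimefon and phenobarbital. On control feed none of the members was called between day 30 and day 4, where 5.32% of genes were in the conazole and 0.00% in the phenobarbital experiment (668 genes there at an unadjusted p under 0.05). The lowest unadjusted p among the members in these control comparisons was 0.029, for Cyp3a13 in phenobarbital controls, at 9.46 on day 30 and 10.47 on day 4.

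The receptors that drive CYP3A transcription were not called higher under any diet. Nr1i2, which encodes PXR, had changes of 0.02 and 0.11 under propiconazole, -0.18 and 0.00 under triadimefon, and 0.30 and 0.16 under phenobarbital on day 4 and day 30, with adjusted p of 0.82 or more. Of 14 measured regulators of 15 listed, 0 were called higher in any of the 6 comparisons, while 4 were lower under propiconazole on day 4 (6.53% of genes) and 1 on day 30 (5.53% of genes). On day 4 Nr1i3, which encodes CAR, was at 7.08 against 9.28 (-2.20 ± 0.59, adjusted p = 0.012, 2 of 3 treated arrays above background), but without replicate 2 the change was -0.66 (adjusted p = 0.050, not called). Rxra, which encodes the partner RXR, fell by 1.08 (adjusted p = 0.0050; -0.45 without replicate 2), and Cebpa, a hepatocyte transcription factor, fell by 1.24 (adjusted p = 0.00071; -0.68 without replicate 2). The coactivator Ppargc1a fell to below background, at least 1.48-fold lower (adjusted p = 0.0032), and Ncoa1, another coactivator, had a change of -0.60 ± 0.19 on day 30 (adjusted p = 0.035; 0.072 with the values as deposited and 0.081 with median centring), with 1 of 3 treated arrays above background. With propiconazole day 4 replicate 2 left out of the fit, 5 and 5 regulators were lower under propiconazole and 1 and 3 under triadimefon on day 4 and day 30.

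Part of a list of other genes known as PXR or CAR targets was called higher under each compound on the same arrays. The list was chosen with earlier results of these data known, so its counts and medians are a description. From 5 to 10 of its measured genes were not called in each comparison. Of 21 measured of 24 listed, 15 and 16 were higher under propiconazole on day 4 and day 30, 11 and 13 under triadimefon, and 11 and 11 under phenobarbital, and 0 were lower. Without propiconazole day 4 replicate 2, 11 were higher under propiconazole on day 4. In the fit of all arrays, 7.36% and 5.29% of all genes were called higher under propiconazole on day 4 and day 30. Under triadimefon these shares were 2.10% and 2.41%, and under phenobarbital 0.530% and 0.395%. The list's median change was 1.0 and 1.39, 0.94 and 1.07, and 0.91 and 0.72, while that of all genes was 0.03 or less. Cyp2b10, the classical CAR target, rose by 4.80 and 5.94, 4.43 and 5.71, and 3.56 and 4.09, and Cyp2c55 by 5.57 and 6.00, 5.24 and 5.6, and 5.13 and 5.20 in the same order. Cyp2c65, a further member of the CYP2C family, was at least 6.23-fold and 16.8-fold higher under propiconazole, 1.31-fold and 9.03-fold under triadimefon, and 6.16-fold and 18.5-fold under phenobarbital. In these comparisons the changes of Cyp3a11 were -0.11 to 0.07 and those of Cyp3a44 -0.12 to 1.03. Cyp3a11 read near the top of the scale, where the highest level of any probe set was 13.71. Among genes near its level the largest called rise under propiconazole on day 30 was 0.34. Its changes therefore cannot be compared in size with those of Cyp2b10 and Cyp2c55. No CYP3A gene was on this list.

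Electron donors and heme enzymes serve all P450s. Of 13 measured of 15 listed, 2 and 2 were higher under propiconazole on day 4 and day 30, 2 and 1 under triadimefon, and 2 and 2 under phenobarbital, and 3 were lower under propiconazole on day 30. Of all genes, 7.36% and 5.29%, 2.10% and 2.41%, and 0.530% and 0.395% were called higher in that order. Under propiconazole on day 30, 5.53% were called lower. Alas1, the first and limiting enzyme of heme synthesis, rose by 3.85 ± 0.43 and 1.36 ± 0.43 under propiconazole, by 3.24 ± 0.43 under triadimefon on day 4 and by 1.59 ± 0.34 under phenobarbital on day 30. The day 30 rise of Alas1 under propiconazole, at 12.18 against 10.83 in controls (11.95 against 8.10 on day 4), was not called with the values as deposited (1.33, adjusted p = 0.063) or median centring (1.30, adjusted p = 0.056). Cyb5a, which encodes cytochrome b5, was called higher in all 6 comparisons, by 0.20 to 0.34, but in only 2 of them with the values as deposited (triadimefon day 4 and phenobarbital day 30) and in 0 with median centring. Pgrmc1, a heme-binding P450 partner, was called higher by 0.16 under phenobarbital on day 4, and under neither of the other scalings (0.20 in both, adjusted p = 0.24 and 0.66). Under propiconazole on day 30 the heme enzymes Uros and Cpox and the cytochrome b5 form Cyb5b had changes of -0.93, -1.02 and -0.39, of which that of Cyb5b was not called under the other scalings (adjusted p = 0.081 and 0.076). With propiconazole day 4 replicate 2 left out of the fit, 4 of the list were higher and 4 lower in that comparison, and 2 higher and 1 lower under triadimefon on day 30. Por, which encodes the P450 reductase, was not analysed here.

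Since Cyp3a41 and Cyp3a44 are known as female-predominant, other sex-biased liver genes were counted in these males. Of 11 measured female-biased genes of 15 listed, 5 had a mean above background. Of the 11, 3 were higher and 1 lower under propiconazole on day 30, 1 higher under triadimefon on day 30 and 2 higher under phenobarbital on day 30, with 0 called on day 4. Of all genes, 5.29% were called higher and 5.53% lower under propiconazole on day 30. Under triadimefon and phenobarbital on day 30, 2.41% and 0.395% were called higher. The 1 lower gene of the list, Acot3, was below background in both groups. Cyp2b9 and Cyp2b13, both also known to respond to CAR activators, were 14.4-fold and at least 10.6-fold higher under propiconazole and 8.82-fold and at least 4.22-fold higher under phenobarbital, and Prom1 was at least 4.80-fold higher under propiconazole and 2.71-fold under triadimefon. A bound is given where no control array was above background. Of 11 measured male-biased genes of 12 listed, 5 were lower under propiconazole on day 30 (5.53% of genes). Under triadimefon on day 30, 3 were lower (3.0% of genes), and under propiconazole on day 4, 1 was (6.53% of genes). With the values as deposited these counts were 6, 1 and 4, and with median centring 5, 2 and 2, the last with 1 gene higher; 1 was also higher on day 4 without propiconazole replicate 2. Susd4 was at least 9.90-fold lower under propiconazole and stood at 6.70 under triadimefon on day 30, against 9.44 on control feed. Hsd3b5, a steroid dehydrogenase of male liver, stood at 7.90 under propiconazole and 11.98 in controls, and Elovl3, Cyp7b1 and Nudt7 had changes of -1.54, -1.40 and -0.90. Under triadimefon Slco1a1 and Nudt7 had changes of -0.65 and -0.55, not called with the values as deposited (adjusted p = 0.060 and 0.059), nor Nudt7 with median centring (adjusted p = 0.064). Under phenobarbital 0 male-biased genes were called, with list medians of 0.13 and 0.00. Nudt7 was the 1 male-biased gene lower under propiconazole on day 4 (-0.87 ± 0.16).

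Beside the changes of Cyp3a44 and the Cyp3a41a/b probe set, summed intensities of marker lists also differed in part between conazole and control arrays. Some were higher and some lower, many ranges overlapped, and no test was made. Pericentral markers (10 of 10) summed to 22490 to 24490 under propiconazole, 26330 to 28530 under triadimefon and 25780 to 28300 in controls on day 30. Hepatocyte markers (7 of 8) then summed to 54830 to 60340, 60130 to 62230 and 60420 to 60930 in that order. On day 4 they summed to 55400 to 57580 under triadimefon and 57760 to 59280 in controls. Propiconazole sums overlapped with controls on day 4, as pericentral sums did under both conazoles. Neutrophil markers (4 measured of 6) summed to 330.1 to 6557 under propiconazole, 237 to 369 under triadimefon and 183 to 299 in controls on day 4, and to 152.8 to 4517 under propiconazole, 1345 to 2121 under triadimefon and 107 to 255 in controls on day 30. Bile duct markers (4 of 5) summed to 495 to 560 under propiconazole, 490 to 664 under triadimefon and 342 to 410 in controls on day 4, and to 709 to 817, 544 to 641 and, in controls, 438 to 574 on day 30. Kupffer cell markers (10 of 10) overlapped between diets on day 4 and on day 30. On day 30 they summed to 5801 to 11080 under propiconazole, 5741 to 17790 under triadimefon and 5017 to 6462 in controls. Lymphocyte markers (3 of 4) likewise overlapped on day 4 and summed to 219.9 to 317 under propiconazole, 196 to 662.2 under triadimefon and 150.7 to 208.8 in controls on day 30. Enterocyte markers (4 of 5) were lower on every conazole array on day 4, at 773.8 to 1396 under propiconazole and 725.4 to 1374 under triadimefon, against 1782 to 1957 in controls. On day 30 they summed to 630.1 to 1010 under propiconazole, 783.1 to 1130 under triadimefon and 1114 to 1339 in controls. Stellate cell markers (6 of 6) summed to 1281 to 1492 under propiconazole, 1399 to 1624 under triadimefon and 1487 to 2494 in controls on day 30. Endothelial markers (5 of 5) then summed to 1987 to 2382, 2074 to 2354 and, in controls, 2377 to 2468. Both lists overlapped on day 4. On day 30 stellate sums overlapped with controls under both conazoles, and neutrophil and endothelial sums under propiconazole. Lymphocyte, bile duct and enterocyte sums did so under triadimefon. Single markers of a list differed: S100a8 was above background on 22 arrays, S100a9 on 13, Mpo on 27 and Csf3r on 0, and Epcam on 38, Sox9 on 24, Krt19 on 1 and Krt7 on 0. The enterocyte sum rested on Fabp2, with a mean level of 10.34 over all arrays. Vil1, Lct and Cdx2 had means of 4.14, 5.05 and 5.61, below background. The part of these cells in the changes of Cyp3a44 and the Cyp3a41a/b probe set was not tested.

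The genes whose changes over the 38 arrays were most like each member were found among 8623 named genes above background, by Pearson r of the log2 level minus the mean of same-day controls. For Cyp3a44 they were Dcdc2a (r = 0.81), Cers6 (0.80), Kpna4 (0.79), Vkorc1l1 (0.79) and Serf1 (0.78). For the Cyp3a41a/b probe set they were Daam2 (0.84), Snupn (0.84), Fgd4 (0.82), Mthfsd (0.80) and Sbk1 (0.79). No gene stood on both lists. For Cyp3a13 they were Golim4 (0.75), Prelid2 (0.74), Cd302 (0.71), Rnf135 (0.70) and Tmem176b (0.69). Cyp3a11 and Cyp3a25, which vary least, had lower values, led by Slf2 (0.67) and Slc25a3 (0.56). All of these r share arrays, groups and controls and are given as a description.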

How the data were processed

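Liver RNA was hybridised to 38 Affymetrix mouse arrays, each taken as 1 mouse. The deposited values are linear probe-set intensities, 21.15% of them below 0, and what software made them is not stated by any label or header. Intensities were quantile normalized over all arrays, floored at 0 and turned into log2(value + 16). The probe set with the highest mean stood for each gene, among the 34945 of 45101 probe sets that the platform annotation gives 1 symbol. A further 932 had several symbols, 9211 were unlisted and 13 control sets were left out. The Cyp3a41a/b probe set entered the fit as 1 more row, chosen after the data were seen. Group means of all 10 groups were fitted with limma 3.58.1 (R 4.3.3, eBayes with an intensity trend, 28 residual degrees of freedom), with Benjamini-Hochberg adjustment over the 17728 genes that varied. The fit was tested on simulated data. The titles call every array a biological replicate, and each was taken as a different mouse. Only the phenobarbital titles carry a further number besides day and replicate. On that reading p-values measure the spread between mice, as 1 value per gene shared by all 10 groups of both experiments. Group SDs of Cyp3a41a/b ran from 0.08 to 0.53 in the conazole and from 0.10 to 0.19 in the phenobarbital experiment. Those of Cyp3a16 ran from 0.03 to 0.85 and from 0.01 to 0.19. The number of arrays limits precision.

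The level called background, an intensity of 54.2, is the 95th percentile over 39 olfactory receptor genes. A fold against a group with no array above background is a lower bound taken against background. The genes named are all CYP3A members, Nr1i2, Nr1i3 and Por, up to 3 called genes with the largest change of each list in each comparison with control feed, and the 5 genes most like each member above background. Rxra, Cyb5b, Cyp7b1, Acot3, and Nudt7 and Cyb5a under propiconazole on day 30, fall outside that rule and were named after their values were seen, as were the cell type markers, taken from lists of such markers. The members and lists were chosen with earlier results of these data known. Alternatives were other scalings, pseudocounts, filters, weights, fits and probe sets, the replicate number as a block, and each array left out. Same-numbered arrays did not deviate together (median r 0.00 and -0.01 in the conazole and phenobarbital experiments), so replicate numbers were not treated as pairs.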

Additional observations from a re-analysis of the deposited data

Results flagged for a closer look

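Within 24 sets of 5 values examined (each probe set in each group of the phenobarbital experiment), 4 values stood far from the rest, and chance flags about 1 in 20 groups. For Cyp3a44, phenobarbital control day 4 replicate 1 read 6.37, below the other controls at 7.05 to 7.14. For Cyp3a16, which was below background on every array, phenobarbital day 4 replicate 2 and phenobarbital control day 30 replicate 1 both read 4.42 and phenobarbital day 30 replicate 3 read 4.28, each above the rest of its group. The remaining Cyp3a16 values of these groups read 4.00, the lowest possible value, to 4.08. With so many values at that floor, the rate of 1 in 20 does not hold for them. The change of Cyp3a44 differed between compounds on day 30, by 1.14 for propiconazole minus phenobarbital (limma, adjusted p = 0.047; 0.020 to 0.15 over its alternatives), with 3 of 3 propiconazole arrays above all controls and the phenobarbital arrays overlapping theirs. The doses, the experiments and the levels on control feed differed as well.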

How the results depend on the processing

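Of 794 recomputed values of 42 results for single probe sets, 751 kept their direction and their side of the threshold or were called in neither case (23 of these with the opposite sign), 30 lost the call, 13 gained it and 0 turned direction while called. The number of the 5 members with their own probe set that were called was 1 for propiconazole on day 4, and 0 with the values as deposited, with array weights and with only the groups compared (1 to 2 leaving out single arrays). It was 2 on day 30, 1 with genes above background alone and 0 with only the groups compared (1 to 2). For triadimefon it was 0 on day 4 and 1 with the values as deposited (0 to 1), and 1 on day 30 and 0 with median centring, array weights or only the groups compared (0 to 1). For propiconazole minus phenobarbital on day 30 it was 1, became 0 with the values as deposited, median centring, a pseudocount of 4 or the replicate block, and 2 without the propiconazole day 4 array with the Gapdh excess (0 to 1). For triadimefon minus phenobarbital on day 30 it was 0, and 1 with only the groups compared (0 to 1). For propiconazole minus phenobarbital and propiconazole against triadimefon on day 4 it was 0 (0 to 1). With the replicate number as a block, the day 30 difference of Cyp3a44 stayed at 1.14 with an adjusted p of 0.061, the 1 call the block removed among single probe sets; 5 of 18 conazole arrays and 2 of 20 phenobarbital arrays correlated best with their own number. With only the groups compared, the spread came from fewer arrays and from those groups alone. Then 6 and 540 genes in all were called for propiconazole on day 4 and day 30 and 1 and 111 for triadimefon. The shared fit called 2463, 1917, 665 and 958 in the same order. With array weights 829 and 601 were called for phenobarbital, against 120 and 84. Lower regulators under propiconazole numbered 7 and 0 on day 4 and day 30 with the values as deposited and 4 and 0 with median centring, against 4 and 1, and electron and heme genes under propiconazole on day 4 were 1 higher and 4 lower as deposited, against 2 and 0. With both other scalings 0 electron and heme genes were higher for propiconazole and triadimefon on day 30 and phenobarbital on day 4, against 2, 1 and 2, and with median centring 1 was for propiconazole and triadimefon on day 4 and phenobarbital on day 30, against 2 each. Lower male-biased genes for triadimefon on day 30 were 1 and 2 with the values as deposited and median centring, against 3, and 4 and 2 for propiconazole on day 4, against 1. One female-biased gene was higher for phenobarbital on day 4 as deposited, against 0. With the values as deposited, 8.60% of the genes called for propiconazole on day 4 were higher, against 53.0% in the main setting and 38.4% with median centring; for triadimefon on day 4 these shares were 93.3%, 56.1% and 51.7%, and for propiconazole on day 30 45.3%, 48.9% and 35.9%. The cause was not tested for any change. Cyp3a16 lies below background, where its level cannot be measured, and Cyp3a11 near the top of the scale.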
